A study of Mus musculus with 12 samples.

Results

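The endothelial receptors and junction genes are 10 mouse genes that vessel-lining cells use to sense growth factors and to hold on to each other: Flt4, Kdr, Tek, Tie1, Cdh5, Pecam1, Stab2, Esam, Eng and Ushbp1. They were chosen by gene symbol, and each had 1 row among the 35869 genes of the deposited tables. All 10 were among the 19395 genes with enough reads to be tested. They were followed in hematopoietic stem cells (HSCs) that had been sorted from bone marrow by flow cytometry into a CD41pos and a CD41neg fraction. CD41 is the integrin alpha chain encoded by Itga2b and marks stem cells primed towards megakaryocytes.

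Every mouse carried a floxed Runx1 gene on both alleles (RUNX1f/f), RUNX1 being a transcription factor of blood formation. The KO mice also carried the MxCre1 recombinase transgene (MxCre1+/-), and the WT mice lacked it (MxCre1-/-). Mice of either genotype were injected 4 times with poly(I:C), which induces interferon and with it the recombinase, and the marrow was taken 4 weeks after injection. The Mx1 promoter that drives this Cre is not restricted to stem cells, so cells of the surrounding marrow can recombine too. The 12 libraries formed 4 groups of 3: CD41pos KO, CD41pos WT, CD41neg KO and CD41neg WT.

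Kdr (VEGFR2) and Flt4 (VEGFR3) are receptor tyrosine kinases for vascular endothelial growth factors, and Tek (TIE2) is the receptor for angiopoietins, with Tie1 as its partner receptor. Eng (endoglin) is a co-receptor of the TGF-beta and BMP family. VE-cadherin, PECAM1 and ESAM sit at contacts between endothelial cells, and in blood several of these proteins, among them TIE2, ESAM, PECAM1 and endoglin, are also found on stem cells. Stab2 is a scavenger receptor of sinusoidal endothelium, and Kdr, Flt4, Cdh5 and Stab2 are commonly used as marks of marrow vessels.

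The promoters of 5 of the genes are shown because 4 of them fell in CD41neg KO libraries (Flt4, Kdr, Stab2 and Ushbp1) and 1 rose in CD41pos KO libraries (Tek). The sequences are those of RefSeq on GRCm38.p6, from 250 bases before to 50 bases after the RefSeq gene start, read along the strand of the gene. Of the 10 genes, 7 had an entry (these 5, Eng and Tie1), while Cdh5, Pecam1 and Esam had none. Capitals mark every match, on either strand, to the RUNX core TGTGGT, its second form TGCGGT, or the ETS core with its flank AGGAAG, and a match on the other strand appears as its reverse complement. None of the 3 motifs overlapped another.
Flt4, chr11:49609429-49609728 (plus strand): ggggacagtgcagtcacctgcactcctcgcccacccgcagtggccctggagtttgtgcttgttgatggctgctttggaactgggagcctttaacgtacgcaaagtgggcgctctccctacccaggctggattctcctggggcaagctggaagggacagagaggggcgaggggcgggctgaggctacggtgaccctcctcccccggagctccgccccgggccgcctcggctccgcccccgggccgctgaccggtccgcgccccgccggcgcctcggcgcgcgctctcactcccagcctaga
Kdr, chr5:75978406-75978705 (minus strand): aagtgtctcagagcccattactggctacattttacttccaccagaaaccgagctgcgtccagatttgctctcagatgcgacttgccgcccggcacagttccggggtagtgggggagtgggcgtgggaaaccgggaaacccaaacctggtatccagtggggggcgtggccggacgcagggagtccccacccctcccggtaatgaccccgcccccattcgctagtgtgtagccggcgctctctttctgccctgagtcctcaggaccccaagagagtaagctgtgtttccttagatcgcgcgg
Stab2, chr10:87007893-87008192 (minus strand): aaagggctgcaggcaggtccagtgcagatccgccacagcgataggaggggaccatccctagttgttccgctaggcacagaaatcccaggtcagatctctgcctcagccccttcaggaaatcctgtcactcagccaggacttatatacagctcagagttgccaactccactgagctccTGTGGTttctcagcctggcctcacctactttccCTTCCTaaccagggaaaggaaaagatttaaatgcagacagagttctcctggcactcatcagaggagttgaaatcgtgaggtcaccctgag
Ushbp1, chr8:71395752-71396051 (minus strand): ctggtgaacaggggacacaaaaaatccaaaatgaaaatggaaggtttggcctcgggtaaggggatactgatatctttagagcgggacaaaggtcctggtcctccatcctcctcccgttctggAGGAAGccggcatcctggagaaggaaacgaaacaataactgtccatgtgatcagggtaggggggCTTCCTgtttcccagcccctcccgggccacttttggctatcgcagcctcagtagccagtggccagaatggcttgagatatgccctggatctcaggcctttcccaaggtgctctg
Tek, chr4:94739039-94739338 (plus strand): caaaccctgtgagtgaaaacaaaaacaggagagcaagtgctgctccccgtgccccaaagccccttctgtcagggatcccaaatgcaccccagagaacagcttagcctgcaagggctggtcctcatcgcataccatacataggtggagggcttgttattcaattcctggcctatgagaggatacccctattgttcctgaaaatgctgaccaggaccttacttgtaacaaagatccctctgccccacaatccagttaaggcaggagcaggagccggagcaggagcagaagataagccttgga

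Among the 7 promoters, TGTGGT stood in 1, that of Stab2, where its first base lay 73 bases before the start on the strand of the gene. TGTGGT was found in 16.8% of all 32851 promoters of the same length. TGCGGT stood in 0 of the 7 and in 6.5% of all promoters. AGGAAG stood in 4 of the 7 (Eng, Tie1, Ushbp1 and Stab2) and in 35.4% of all promoters. The windows of Flt4, Kdr and Tek held none of these letters in this order. A match is a description of the letters and not a binding site.

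The 10 genes lie on 7 chromosomes. On GRCm38 the GENCODE annotation places Flt4 on chromosome 11 from 49609263 to 49652739 on the plus strand and Pecam1 on chromosome 11 from 106654217 to 106750628 on the minus strand. Tek lies on chromosome 4 from 94739289 to 94874976 on the plus strand and Tie1 on chromosome 4 from 118471191 to 118490061 on the minus strand. Cdh5 lies on chromosome 8 from 104101625 to 104144511 on the plus strand and Ushbp1 on chromosome 8 from 71384272 to 71395802 on the minus strand. Kdr lies on chromosome 5 from 75932827 to 75978458 and Stab2 on chromosome 10 from 86841198 to 87008025, both on the minus strand. Esam lies on chromosome 9 from 37528078 to 37538319 and Eng on chromosome 2 from 32646595 to 32682669, both on the plus strand. Each position is the span of the whole protein-coding gene, and values are totals over its exons. The library kit does not mark strand, so reads of an antisense gene cannot be told apart where exons overlap, which concerned 141 of Stab2's exon bases (1.61%, with Gm16268) and 61 of Eng's (1.51%, with Fpgs).

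Total counts per library ranged from 44108035 to 58946457. Runx1, the targeted gene, had 270 to 382 CPM (read counts scaled to the size of the library, adjusted by TMM) in CD41pos KO libraries, against 141 to 159 CPM in CD41pos WT libraries. It had 157 to 171 CPM in CD41neg KO libraries, against 65.7 to 90.6 CPM in CD41neg WT libraries. The gene total was thus higher in the libraries labelled KO in both fractions. It sums all exons, and the reads of the floxed segment cannot be separated in it, so it does not check the deletion, and KO and WT are used below as the labels give them. Itga2b followed the gate, with 1028 to 1268 CPM in CD41pos KO, 551 to 683 CPM in CD41pos WT, 213 to 270 CPM in CD41neg KO and 49.6 to 138 CPM in CD41neg WT libraries. The stem cell marker Kit had at least 184 CPM in every library, and Slamf1 at least 21.4 CPM. Of 16 genes on the stem cell list, 2 rose (Cd48 and Slamf1) and 1 fell (Hoxb5) in KO libraries of each fraction. Over all genes tested, 17.1% changed in CD41pos and 7.82% in CD41neg KO libraries. Of 18 megakaryocyte and platelet markers, 13 were higher in CD41pos than in CD41neg libraries in each genotype and none was lower. The number that opens each library's description runs from 13 to 22 in KO and from 1 to 10 in WT, so any effect of handling order and genotype cannot be told apart. The 4 WT libraries numbered up to 6 stood apart from the other 8 in the immediate early gene Nr4a1, with 18.6 to 27.7 CPM against 237 to 396 CPM. Nr4a1 was picked after its values were seen, and these 4 libraries are called those that stood apart on that gene only. CD41pos WT 3 and CD41neg WT 3 are the WT libraries outside those 4. The labels do not say whether libraries of a group came from separate mice, so p-values measure the spread between these libraries.

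Per unit of transcript length, in the deposited TPM, 3 of the genes stood above the rest in every group. In CD41pos KO libraries the mean levels were 149 ± 5.81 TPM for Esam, 117 ± 21.0 TPM for Tie1 and 47.8 ± 1.6 TPM for Eng (SD, n = 3). Tek followed with 22.8 ± 2.75 TPM, and Pecam1 and Kdr had 7.37 ± 0.153 and 6.93 ± 2.36 TPM. In CD41neg WT libraries Tie1, Esam and Eng again led, with 82.7 ± 7.62, 70.4 ± 10.3 and 58.3 ± 0.721 TPM. There Stab2 came next with 10.4 ± 1.44 TPM, followed by Flt4 with 8.77 ± 1.76 TPM, Kdr with 6.47 ± 2.90 TPM, Tek with 5.63 ± 1.46 TPM and Ushbp1 with 5.43 ± 0.971 TPM. Stab2, Flt4 and Ushbp1 averaged at most 1.9 TPM in each of the other 3 groups. Cdh5 was the lowest, at 1.80 ± 0.557 TPM in CD41neg WT libraries and at most 0.333 TPM elsewhere.

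**Figure D1:**
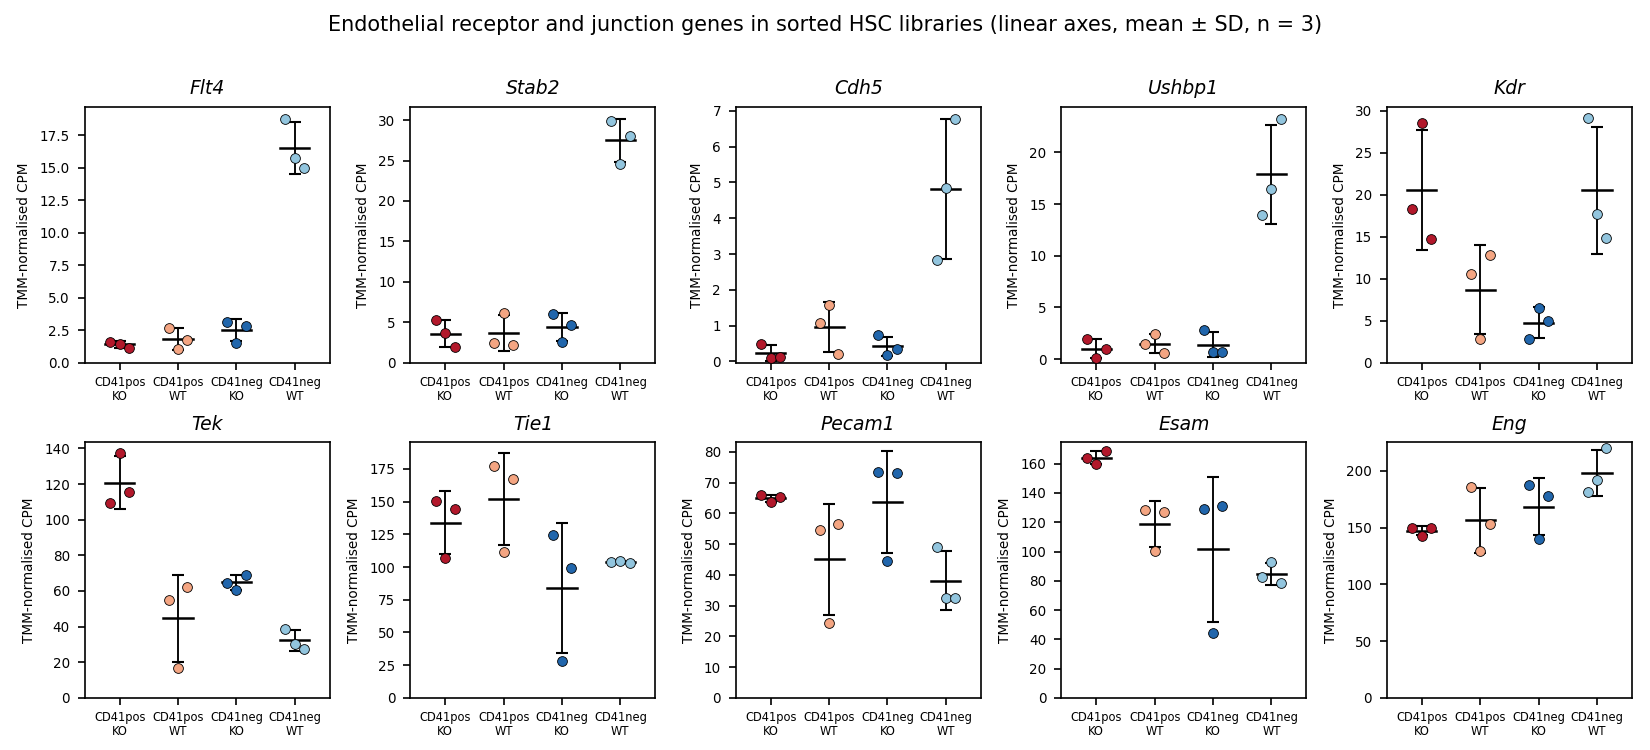
TMM-normalised CPM of each of the 10 genes (vertical axes, linear, one scale per gene) in the 12 libraries, by group (horizontal axes). Points are libraries, and bars give the mean and SD of 3; Flt4, Stab2, Cdh5 and Ushbp1 are high in CD41neg WT only, while Tek is highest in the 3 CD41pos KO libraries.

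In the CD41neg fraction, 5 of the 10 genes fell in KO libraries relative to WT libraries, and none rose: the VEGF receptors Flt4 and Kdr, the sinusoidal scavenger receptor Stab2, the junction gene Cdh5 and Ushbp1, which encodes a harmonin-binding protein. Their fitted levels were 4.31-fold to 13.0-fold lower in KO. Over all genes tested, 7.82% changed in this comparison, 3.85% rose and 3.97% fell. An unadjusted p below 0.05 was reached by 7 of the 10 genes and by 26.3% of all genes tested. The median log2 fold change was -1.21 over the 10 genes and -0.03 over all genes tested. Tests were edgeR's quasi-likelihood tests, two-sided, with Benjamini-Hochberg adjustment over all genes tested, and a gene passed at an adjusted p below 0.05.

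Flt4, which also marks lymphatic endothelium, had 3.16, 1.53 and 2.79 CPM in CD41neg KO libraries 1, 2 and 3, against 18.8, 15.8 and 15.0 CPM in CD41neg WT libraries 2, 3 and 4. The lowest WT library lay above every KO library by more than the spread within either group. The log2 fold change was -2.73 ± 0.37 (SE), a 6.62-fold lower level in KO (edgeR adjusted p = 0.00304). Stab2, which clears hyaluronan from blood, had 6.02, 2.58 and 4.68 CPM in the same KO libraries, against 29.9, 24.6 and 28.1 CPM in the WT libraries. Its groups were as far apart, with a log2 fold change of -2.64 ± 0.47 (edgeR adjusted p = 0.00904). Both genes passed in each of the 24 alternative fits, including those that left out 1 library in turn.

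Kdr had 2.84, 6.47 and 4.98 CPM in CD41neg KO libraries, against 29.1, 17.7 and 14.8 CPM in CD41neg WT libraries. No KO library reached the lowest WT library, and CD41neg WT 2 was well above the other WT libraries. The log2 fold change was -2.11 ± 0.51 (edgeR adjusted p = 0.0297). The call was lost when 1 library was left out: CD41neg WT 2 (adjusted p = 0.0777), CD41neg WT 4 (0.0521), CD41neg KO 1 (0.1), CD41neg KO 2 (0.0519) or CD41neg KO 3 (0.0951). It was also lost with a term for the 4 WT libraries that stood apart, where the log2 fold change was -1.42 (adjusted p = 0.0832).

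Cdh5, the VE-cadherin of adherens junctions, had 0.725, 0.189 and 0.340 CPM in CD41neg KO libraries, against 2.85, 4.84 and 6.76 CPM in CD41neg WT libraries. These are 37, 11 and 20 counts in KO and 146, 213 and 327 counts in WT, so it was scarce in every library. The log2 fold change was -3.53 ± 0.81 (edgeR adjusted p = 0.0237). Ushbp1 had 2.80, 0.671 and 0.680 CPM in the KO libraries, against 14.0, 16.4 and 23.2 CPM in the WT libraries. Again no KO library reached a WT library, and the log2 fold change was -3.70 ± 0.83 (edgeR adjusted p = 0.0221). Both calls were lost without CD41neg WT 4 (adjusted p = 0.0771 for Cdh5 and 0.0655 for Ushbp1), without CD41neg KO 2 (0.0765 and 0.0713) or without CD41neg KO 3 (0.0952 and 0.0899). Within CD41neg WT, library 4 was the highest for Cdh5 and Ushbp1 and the lowest for Flt4 and Kdr, while library 2 was the reverse for all 4 genes.

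The other 5 genes did not pass in the CD41neg fraction. Tek had 64.6, 60.7 and 69.0 CPM in KO libraries, against 38.9, 30.5 and 27.7 CPM in WT libraries. Each KO library lay above each WT library, and the log2 fold change was 1.00 ± 0.35 (edgeR adjusted p = 0.0942). Groups that do not overlap with KO above WT were found for 1 of the 10 genes, Tek, and for 18.5% of all genes tested. With KO below WT they were found for the 5 genes that fell and for 17% of all genes tested. With a term for the 4 WT libraries that stood apart, Tek passed (log2 fold change 1.55, adjusted p = 0.0216).

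Pecam1, an adhesion molecule also found on platelets and leukocytes, had 73.4, 44.6 and 73.3 CPM in CD41neg KO libraries, against 49.3, 32.6 and 32.5 CPM in CD41neg WT libraries, and the groups overlapped (log2 fold change 0.74 ± 0.30, edgeR adjusted p = 0.136). With the term for the 4 libraries it passed (1.23, adjusted p = 0.0276). Tie1 had 124, 28.6 and 99.7 CPM in KO libraries, against 104, 105 and 103 CPM in WT libraries. Esam, a tight junction protein, had 129, 44.03 and 131 CPM in KO libraries, against 82.3, 92.8 and 78.8 CPM in WT libraries. For both genes CD41neg KO 2 was the lowest of all 12 libraries, while the other KO libraries lay near or above WT.

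CD41neg KO 2 decided both values. Without it the log2 fold change of Tie1 was 0.11, against -0.30 ± 0.38 with it (edgeR adjusted p = 0.649), and that of Esam was 0.62, against 0.26 ± 0.30 with it, with Esam then past the threshold (adjusted p = 0.0356 without it and 0.612 with it). CD41neg KO 2 and CD41pos KO 2 were the KO libraries with Xist, at 308 and 318 CPM, and almost no Ddx3y, at 0.155 and 0.161 CPM. The other 4 KO libraries had at most 1 CPM of Xist and at least 83.4 CPM of Ddx3y. CD41pos WT 3 and 4 and CD41neg WT 2 and 3 had both, with 113 to 339 CPM of Xist and 11.2 to 38.9 CPM of Ddx3y. CD41pos WT 1 and CD41neg WT 4 had 246 and 259 CPM of Xist and at most 0.0355 CPM of Ddx3y. In these sex-linked genes the KO and WT libraries thus differed in make-up. Whether the WT libraries with both genes mix animals was not tested. With the mean level of Y-linked genes as a covariate the log2 fold changes were -0.53 for Tie1 and 0.12 for Esam, and neither passed. Eng had 188, 140 and 178 CPM in KO libraries, against 181, 192 and 221 CPM in WT libraries, with overlapping groups and a log2 fold change of -0.23 ± 0.15 (edgeR adjusted p = 0.35).

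**Figure D2:**
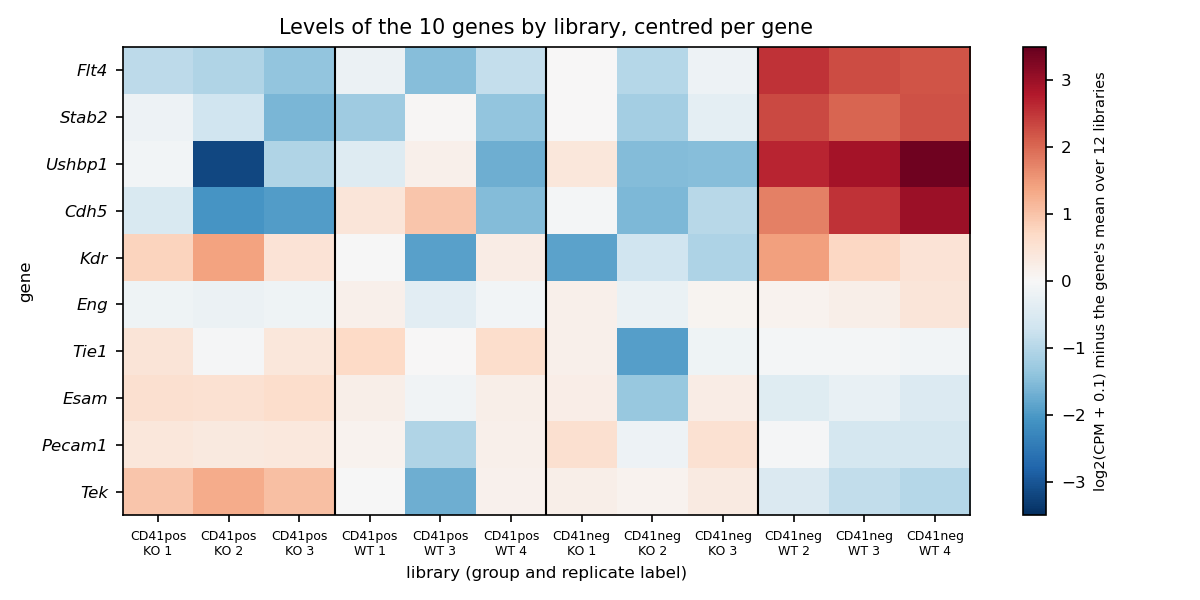
Level of each gene (rows) in each library (columns, by group and replicate label), as log2(CPM + 0.1) minus the gene's mean over the 12 libraries, with red above and blue below the mean. The upper 4 rows are red in the 3 CD41neg WT libraries; Tie1 and Esam are lowest in CD41neg KO 2, and Tek and Pecam1 are lowest in CD41pos WT 3.

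In the CD41pos fraction, 1 of the 10 genes passed, Tek, which rose in KO libraries, and none fell. Over all genes tested, 17.1% changed in this comparison, 9.79% rose and 7.27% fell in the libraries labelled KO. Tek had 110, 137 and 116 CPM in CD41pos KO libraries 1, 2 and 3, against 55.1, 16.8 and 62.0 CPM in CD41pos WT libraries 1, 3 and 4. Each KO library was above each WT library, and CD41pos WT 3 was far below the other WT libraries. The log2 fold change was 1.44 ± 0.35 (edgeR adjusted p = 0.0185), a 2.71-fold higher level. The call was lost without CD41pos KO 2 (adjusted p = 0.0691), without CD41pos KO 3 (0.0509) and in a fit of these groups alone (0.0615), and the log2 fold change was 2.17 with a term for the 4 WT libraries (0.00566).

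Kdr had 18.3, 28.5 and 14.7 CPM in CD41pos KO libraries, against 10.5, 2.77 and 12.8 CPM in CD41pos WT libraries. The groups did not overlap, but the log2 fold change of 1.23 ± 0.49 did not pass (edgeR adjusted p = 0.0976). The term for the libraries that stood apart took it past the threshold (2.15, adjusted p = 0.0263). Pecam1 had 65.9, 63.7 and 65.3 CPM in KO libraries, against 54.6, 24.3 and 56.5 CPM in WT libraries, and Esam had 164, 160 and 168 CPM in KO libraries, against 128, 101 and 127 CPM in WT libraries. Both were higher in each KO library and within a narrow range there, and neither passed (log2 fold change 0.53 ± 0.30 for Pecam1 and 0.47 ± 0.30 for Esam, edgeR adjusted p = 0.219 and 0.28). Groups that do not overlap with KO above WT were found for 4 of the 10 genes and for 21.9% of all genes tested (44.3% in either direction).

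Of the genes that fell in CD41neg KO, Flt4, Stab2, Ushbp1 and Cdh5 were low in both genotypes of the CD41pos fraction. Kdr was not low in CD41pos KO. Flt4 had 1.62, 1.47 and 1.14 CPM in CD41pos KO libraries, against 2.70, 1.07 and 1.73 CPM in CD41pos WT libraries. Stab2 had 5.24, 3.66 and 1.896 CPM in KO libraries, against 2.48, 6.18 and 2.24 CPM in WT libraries. The groups overlapped for both, with log2 fold changes of -0.38 ± 0.35 and -0.01 ± 0.45 (edgeR adjusted p = 0.468 and 0.991). Ushbp1 had 1.95, 0.143 and 0.965 CPM in KO libraries, against 1.51, 2.38 and 0.571 CPM in WT libraries, again with overlap (adjusted p = 0.657). Cdh5 had 0.492, 0.108 and 0.123 CPM in KO libraries, against 1.06, 1.59 and 0.202 CPM in WT libraries, and its log2 fold change of -1.97 ± 0.79 did not pass (edgeR adjusted p = 0.0996). Tie1 and Eng also overlapped, with 107 to 151 CPM and 143 to 150 CPM in KO libraries, against 111 to 177 CPM and 129 to 186 CPM in WT libraries. The median log2 fold change over the 10 genes was -0.05 and over all genes tested -0.08.

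**Figure D3:**
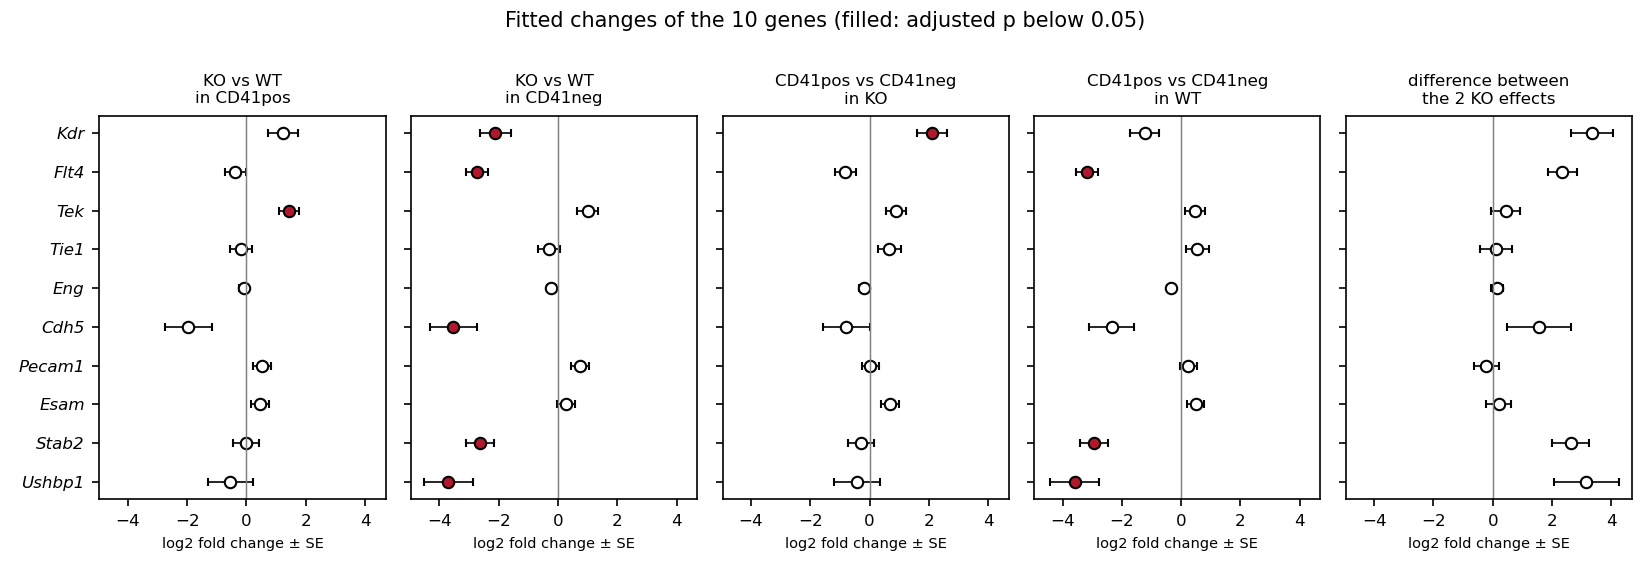
Fitted log2 fold change (horizontal axes, bars 1 SE) of the 10 genes in each comparison, with filled points where the adjusted p is below 0.05. Flt4, Kdr, Stab2, Cdh5 and Ushbp1 lie left of 0 for KO against WT in CD41neg cells, and in CD41pos cells the filled point is Tek, right of 0.

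Between the fractions of WT mice, Flt4, Stab2 and Ushbp1 were lower in CD41pos than in CD41neg libraries, and none of the 10 genes was higher. Over all genes tested, 5.59% differed in this comparison, 2.72% were higher and 2.87% lower in CD41pos. The log2 fold changes of CD41pos over CD41neg were -3.17 ± 0.37 for Flt4, -2.93 ± 0.47 for Stab2 and -3.59 ± 0.82 for Ushbp1 (edgeR adjusted p = 0.00113, 0.00518 and 0.0268). Flt4 thus stood at 1.83 ± 0.819 CPM in CD41pos WT and 16.5 ± 2.02 CPM in CD41neg WT libraries, and Stab2 at 3.63 ± 2.21 and 27.5 ± 2.67 CPM (SD, n = 3). Cdh5 and Kdr were also lower in each CD41pos WT library than in each CD41neg WT library, but did not pass (log2 fold change -2.34 ± 0.76 and -1.24 ± 0.49, edgeR adjusted p = 0.0918 and 0.168). DESeq2 and the fits on TPM called Cdh5 here (adjusted p = 0.0163 and 0.00717 to 0.0417). Groups that do not overlap, in either direction, were found for 7 of the 10 genes and for 22.8% of all genes tested, with Tie1 and Esam the genes that were higher in CD41pos. Flt4 passed in each of the 25 alternative fits. The Ushbp1 call ended when CD41pos WT 1 (adjusted p = 0.0741), CD41pos WT 4 (0.0683), CD41neg WT 2 (0.0503) or CD41neg WT 4 (0.0753) was left out, and without the 4 WT libraries, which leaves 1 WT library per fraction, both Ushbp1 (0.223) and Stab2 (0.0834) lost theirs.

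Between the fractions of KO mice, 1 of the 10 genes passed: Kdr was higher in CD41pos KO than in CD41neg KO libraries. Over all genes tested, 2.79% differed and 1.56% were higher in CD41pos. Kdr had 20.5 ± 7.15 CPM in CD41pos KO and 4.76 ± 1.82 CPM in CD41neg KO libraries (SD, n = 3), a log2 fold change of 2.10 ± 0.51 (edgeR adjusted p = 0.0487). The call sat at the threshold. KO libraries of 1 label number deviated together across the fractions, and with that number as a block the log2 fold change was 2.13 and the adjusted p 0.109. Leaving out 1 library ended the call in 10 of 12 cases, with log2 fold changes between 1.79 and 2.39 and an adjusted p of up to 0.19, without CD41pos KO 2; the exceptions were CD41pos WT 3 and CD41pos WT 4. Tek and Esam were also higher in each CD41pos KO library, with log2 fold changes of 0.90 ± 0.35 and 0.69 ± 0.30 that did not pass (edgeR adjusted p = 0.247 and 0.331). Groups that do not overlap with CD41pos above CD41neg were found for these 3 of the 10 genes and for 15.7% of all genes tested. Flt4, Stab2, Cdh5 and Ushbp1 had log2 fold changes between -0.82 and -0.30 in this comparison, and none passed.

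The 4 groups could therefore be ordered for each gene by their mean CPM. For Flt4 and Stab2 the order was CD41neg WT, CD41neg KO, CD41pos WT and CD41pos KO, and for Ushbp1 and Cdh5 CD41neg WT, CD41pos WT, CD41neg KO and CD41pos KO. In all of these the CD41neg WT libraries stood clear of the next group, and the lower 3 groups overlapped with their neighbours. For Tek the order was CD41pos KO, CD41neg KO, CD41pos WT and CD41neg WT, with a gap only after the first. For Kdr the CD41neg WT libraries (20.5 ± 7.57 CPM) and the CD41pos KO libraries (20.5 ± 7.15 CPM) overlapped and stood above CD41pos WT (8.70 ± 5.26 CPM) and CD41neg KO (4.76 ± 1.82 CPM). For Tie1 both CD41pos groups overlapped and stood above the next group, CD41neg WT. For Esam CD41pos KO was above CD41pos WT without overlap, and for Pecam1 and Eng all neighbouring groups overlapped.

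Whether the KO effect differed between the fractions was tested as the difference of both log2 fold changes, CD41pos minus CD41neg. By edgeR, 0 of the 10 genes and 0 of all 19395 genes passed, while 1093 genes (5.64%) had an unadjusted p below 0.05. DESeq2 called 73 genes, and 3 of them were Flt4, Kdr and Stab2. The differences were 3.34 ± 0.71 for Kdr, 2.35 ± 0.50 for Flt4, 2.63 ± 0.64 for Stab2 and 3.16 ± 1.10 for Ushbp1 (edgeR adjusted p = 0.515, 0.515, 0.608 and 0.827). DESeq2 gave Kdr an adjusted p of 0.00182. For the other 6 genes the differences lay between -0.22 and 1.56. Without the 4 WT libraries, when a lone WT library per fraction is assumed to vary like the KO libraries, the differences of Kdr, Flt4 and Tek passed, at 4.86, 3.15 and 1.84 (adjusted p = 0.00632, 0.0159 and 0.00308), and that of Stab2 did not (0.198). In that fit 17.9% of all genes tested passed (3467 genes). Kdr was the gene of the 10 whose KO libraries lay all above WT in CD41pos and all below WT in CD41neg, as did 35 of all genes tested (0.18%).

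Other genes of the same or related pathways were described from lists. Among 24 tested vascular ligands, receptors, co-receptors and signal mediators, 1 rose and 3 fell in CD41neg KO libraries. Flt1, the decoy VEGF receptor, fell with a log2 fold change of -2.74 ± 0.62 (edgeR adjusted p = 0.0229), and Smad5, a mediator of BMP signals, rose by 0.87 ± 0.19 (0.0192). In CD41pos KO libraries 3 of the 24 rose and 4 fell, among them Gas6, a ligand of TAM receptors (-2.09 ± 0.45, edgeR adjusted p = 0.0108). The medians of the list were -0.09 in CD41neg and -0.05 in CD41pos. Angpt1, the TIE2 ligand, which was picked after its values were seen, averaged 409 ± 8.71 CPM in CD41pos KO, 290.0 ± 100.1 CPM in CD41pos WT, 255 ± 74.1 CPM in CD41neg KO and 188 ± 72.5 CPM in CD41neg WT libraries. In the main fit Angpt1 passed in none of the comparisons within or between fractions. Its log2 fold change in CD41pos KO against WT was 0.495 there. Without the 4 WT libraries, which leaves 1 WT library per fraction, it was 1.261. The Flt1 call was lost without CD41neg WT 4 (adjusted p = 0.0774), CD41neg KO 2 (0.0749) or CD41neg KO 3 (0.0937), that of Smad5 without CD41neg KO 1 (0.0648) or CD41neg KO 3 (0.075), and that of Gas6 without CD41pos KO 2 (0.0551).

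Among 29 tested junction and adhesion partners, 2 rose and 3 fell in CD41neg KO libraries, with a median of 0.01. Cldn5, the claudin of endothelial tight junctions, had 1.37, 0.464 and 0.986 CPM in CD41neg KO libraries, against 10.4, 9.04 and 15.5 CPM in CD41neg WT libraries (log2 fold change -3.63 ± 0.68, edgeR adjusted p = 0.0114). Tjp1, the scaffold protein ZO-1, rose by 1.93 ± 0.42 (edgeR adjusted p = 0.0209). In CD41pos KO libraries 6 rose and 3 fell, with a median of 0.05, and the risers included Rap1b, a small GTPase of adhesion (0.73 ± 0.12, edgeR adjusted p = 0.00371), and the catenin Ctnna1, which links cadherins to actin (0.98 ± 0.16, 0.0038). Between fractions, Rap1b was higher in CD41pos in KO mice (1.72 ± 0.12, edgeR adjusted p = 2.3e-05) and in WT mice (1.35 ± 0.12, adjusted p = 0.000164). The Cldn5 call was lost without CD41neg KO 3 (adjusted p = 0.0545), and that of Tjp1 without CD41neg WT 3 (0.0549), CD41neg WT 4 (0.0789) or CD41neg KO 3 (0.0679).

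Of 30 tested blood endothelial markers, 2 rose and 8 fell in CD41neg KO libraries, with a median log2 fold change of -0.74. Their summed level overlapped, with 485 to 980 TPM in CD41neg KO, against 621 to 787 TPM in CD41neg WT libraries. Plvap, of the diaphragms of fenestrated vessels, had 26.7, 37.1 and 29.7 CPM in CD41neg KO libraries, against 79.3, 79.9 and 119 CPM in CD41neg WT libraries (log2 fold change -1.57 ± 0.31, edgeR adjusted p = 0.0138). Fabp4, a fatty acid carrier of capillaries, had 3.96, 0.705 and 3.16 CPM in KO libraries, against 21.0, 29.1 and 44.6 CPM in WT libraries (-3.60 ± 0.64, edgeR adjusted p = 0.00904). Ramp2, the partner of the adrenomedullin receptor, fell by 3.31 ± 0.51 on the log2 scale (edgeR adjusted p = 0.00528). S1pr1, the sphingosine-1-phosphate receptor, which blood cells use as well, rose instead, by 1.35 ± 0.26 (edgeR adjusted p = 0.0136). The Plvap call was lost without CD41neg WT 4 (adjusted p = 0.0531), CD41neg KO 1 (0.0555) or CD41neg KO 3 (0.0602), and that of S1pr1 without CD41neg KO 3 (0.0542).

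In CD41pos KO libraries, 3 of the 30 blood endothelial markers rose and 5 fell, with a median of -0.48. The sialomucin Podxl had 171, 257 and 208 CPM in CD41pos KO libraries, against 29.0, 34.1 and 20.7 CPM in CD41pos WT libraries. Its log2 fold change of 2.92 ± 0.31 (edgeR adjusted p = 0.000935) exceeded that of Tek, and it was also higher in CD41pos than in CD41neg KO libraries (2.64 ± 0.31, 0.000843). S1pr1 rose in CD41pos KO as in CD41neg KO libraries (1.31 ± 0.26, edgeR adjusted p = 0.00872), and Ramp2 fell there too (-2.51 ± 0.51, 0.00891). Between WT fractions Plvap was lower in CD41pos (-2.01 ± 0.32, edgeR adjusted p = 0.00441), a call lost in a fit of these groups alone (0.0507). Vwf, the platelet and endothelial adhesion protein, was higher in CD41pos between KO fractions (3.004 ± 0.50, edgeR adjusted p = 0.00702) and between WT fractions (2.06 ± 0.49, 0.0302). Between WT fractions Vwf no longer passed once CD41pos WT 1 (adjusted p = 0.0807), CD41pos WT 4 (0.0626), CD41neg WT 2 (0.0946), CD41neg WT 3 (0.0588) or CD41pos KO 3 (0.051) was left out.

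Of 15 tested sinusoidal and lymphatic markers, 0 rose and 5 fell in CD41neg KO libraries, with a median of -0.85. The summed level of all 18 listed overlapped, with 48.9 to 137 TPM in CD41neg KO, against 84.6 to 148 TPM in CD41neg WT libraries. Stab1, the relative of Stab2, had 9.62, 10.0 and 8.62 CPM in KO libraries, against 23.0, 33.2 and 32.0 CPM in WT libraries (log2 fold change -1.64 ± 0.26, edgeR adjusted p = 0.00602). Tfpi, the tissue factor pathway inhibitor, fell by 0.85 ± 0.16 on the log2 scale (edgeR adjusted p = 0.00991), a call lost on TPM (0.128 to 0.171). In CD41pos KO libraries 1 rose and 1 fell, with a median of -0.16. Among 28 tested endothelial and blood transcription factors, 1 rose and 1 fell in CD41neg KO libraries, and 3 rose and 2 fell in CD41pos KO libraries. Sox18, a factor of vessel and lymphatic formation, fell in both, by 3.43 ± 0.47 in CD41neg and 2.61 ± 0.45 in CD41pos on the log2 scale (edgeR adjusted p = 0.00313 and 0.00488). Hhex, a homeobox factor of blood and vessels, fell in CD41pos by 0.66 ± 0.13 (edgeR adjusted p = 0.00796). The Hhex call was lost with the label number as a block (adjusted p = 0.0567) and on TPM (0.171 to 0.31). The ETS factor Fli1 was higher in CD41pos than in CD41neg libraries of KO mice (1.62 ± 0.23, edgeR adjusted p = 0.00269) and of WT mice (1.16 ± 0.23, 0.0132). The KO call was lost with the label number as a block (1.65, adjusted p = 0.0595), and the WT call without CD41neg WT 4 (0.0533), in a fit of these groups alone (0.0658) and without the 4 WT libraries (0.252). Its relative Erg was higher in CD41pos of WT mice (0.84 ± 0.16, edgeR adjusted p = 0.0122), a call lost in a fit of these groups alone (0.0918), without the 4 WT libraries (0.0991) and on TPM (0.0924 to 0.148). Tgfb1 was higher in CD41pos of WT mice (0.84 ± 0.16, edgeR adjusted p = 0.013). That call was lost without CD41neg WT 4 (0.0536), in a fit of these groups alone (0.101) and with the label number as a block (0.135).

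**Figure D4:**
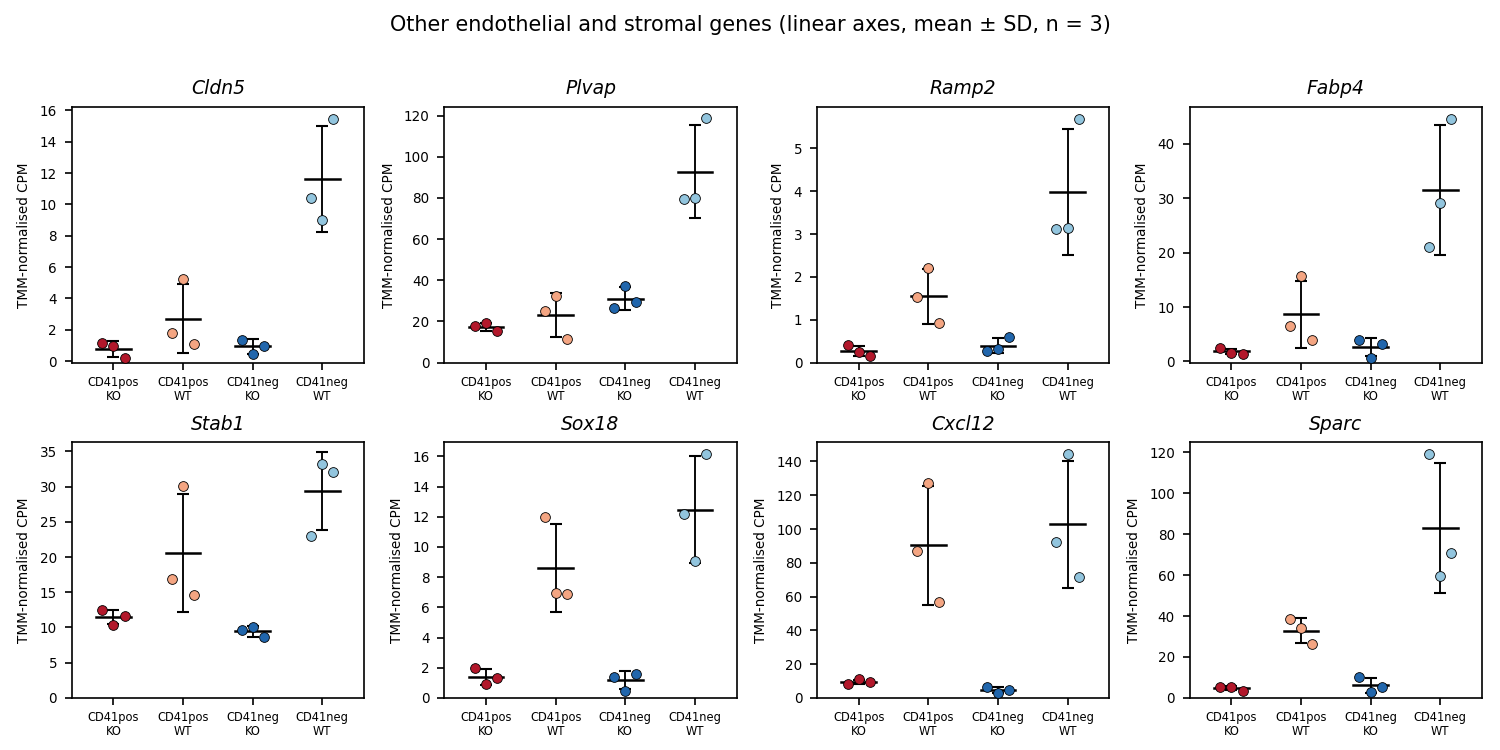
TMM-normalised CPM of 8 further genes (vertical axes, linear) by group (horizontal axes), with libraries as points and the mean and SD of 3 as bars. Cldn5, Plvap, Ramp2, Fabp4 and Stab1 are highest on average in CD41neg WT, while the stromal genes Cxcl12 and Sparc are high in WT libraries of both fractions.

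Some markers of other cell types also fell in KO libraries. Over all genes tested, 3.97% fell in CD41neg and 7.27% in CD41pos KO libraries. In bulk libraries, fewer cells of a type and less RNA per cell cannot be told apart. Of 17 stromal and mesenchymal markers, 0 rose and 9 fell in CD41neg KO libraries, with a summed level of 19.7 to 33.7 TPM in KO, against 111 to 636 TPM in WT. In CD41pos KO libraries 0 rose and 8 fell, with 26.0 to 34.2 TPM in KO, against 107 to 259 TPM in WT. The niche chemokine Cxcl12 had 3.03 to 6.66 CPM in CD41neg KO, against 71.7 to 144 CPM in CD41neg WT libraries, and 8.08 to 10.99 CPM in CD41pos KO, against 56.7 to 127 CPM in CD41pos WT libraries. The matrix gene Sparc fell in both fractions, by 3.77 ± 0.43 in CD41neg and by 2.78 ± 0.42 in CD41pos on the log2 scale (edgeR adjusted p = 0.00136 and 0.00297). The summed stromal level was higher in each WT than in each KO library of both fractions. It was uneven among WT libraries, with 636 TPM in CD41neg WT 2 and 107 to 259 TPM in the others. Flt4, Stab2, Cdh5 and Ushbp1 were high in CD41neg WT and low in CD41pos WT libraries. Whether stromal or other cells in the sorted fractions contributed to the levels of these genes was not tested.

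Of 14 tested macrophage and monocyte markers, 0 rose and 2 fell in CD41neg KO libraries. Their summed level was 42.1 to 230 TPM in CD41neg KO, against 154 to 266 TPM in CD41neg WT libraries. Of 10 tested plasma and B cell markers, 0 rose and 3 fell there, with sums of 239 to 461 TPM in KO, against 661 to 5337 TPM in WT. Among the listed endothelial genes, Lyve1, Etv2 and Sox17 were scarce, and they were picked after their values were seen. Lyve1 had at most 0.219 CPM, Etv2 at most 0.0908 CPM and Sox17 at most 1.75 CPM in any library. Others, such as Plvap, Fabp4, Cldn5 and Stab1 above, were well above these levels in every CD41neg WT library. Without any read were 0 of the 30 blood endothelial markers in CD41neg KO libraries and up to 1 in CD41neg WT libraries, and of 18 sinusoidal and lymphatic markers 1 to 2 in both groups. Of the 17 stromal markers 0 to 2 had no read in CD41neg KO and 0 to 1 in CD41neg WT libraries. The part of cells of these types in the levels of Flt4, Kdr, Stab2, Cdh5 and Ushbp1 was not tested.

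The 10 genes fell into different patterns over the 12 libraries. As a description over libraries that share 4 groups, the Pearson correlation of log2 CPM was 0.903 between Flt4 and Stab2, 0.945 between Cdh5 and Ushbp1, and at least 0.828 for each pair of these 4 genes. Tek and Pecam1 gave 0.876 and Tie1 and Esam 0.821. Eng gave 0.817 with Flt4, although its groups differed far less. Kdr correlated with no other of the 10 genes above 0.373. Between the receptor Tek and the junction gene Cdh5 the value was -0.796.

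The genes most like each of the 10 over the 12 libraries were found among tested genes with a mean of at least 5 CPM. For Tek they were Vcl, the adhesion protein vinculin, and Nin (r = 0.981 and 0.975), and for Tie1 the junction gene F11r and Rilpl1 (0.959 and 0.951). For Pecam1 they were Zdhhc20 and Pik3cg (0.968 and 0.965), and for Esam Sestd1 and Stap1 (0.971 and 0.96). Near Cdh5 was Fam136a (0.963), and near Stab2 was Ddx51 (0.915). Flt4 was nearest to Chadl and Vars (0.958 and 0.938), and Ushbp1 to Ctbp1 and Lgmn (0.933 and 0.927). The nearest to Kdr were Pdia4 and Smyd4 (0.925 and 0.87), and the nearest to Eng Trpv2 and Mks1 (0.901 and 0.9). Each r is over 12 libraries of 4 groups and reflects differences between groups as much as those within them.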

How the data were processed

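RNA of HSCs sorted from bone marrow was extracted with a miRNeasy Micro kit and made into libraries with the SMART-Seq v4 kit, per the labels' protocols. The submitters' processing notes name FastQC 0.11.7, cutadapt 1.9.1, STAR 2.6.1e, featureCounts 1.6.2 and the mm10 build, with no settings. The authors deposited a table of read counts per gene, not normalized, and a table of TPM, which divides by transcript length and depth, for the same 12 libraries. Spreadsheet programs had turned 27 gene names of the count table into dates, and these were restored from the TPM table.

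Counts were fitted in edgeR 4.0.16 (R 4.3.3) with TMM scaling, filterByExpr (19395 of 35869 genes kept, 16474 left out), 4 group means over all 12 libraries and quasi-likelihood tests, two-sided, with Benjamini-Hochberg adjustment. limma 3.58.1 on log2(TPM + 1) and DESeq2 1.42.0 were alternatives, as were other filters and scalings, a term for or omission of the 4 WT libraries that stand apart, a Y-linked covariate and each of 12 libraries left out. CPM are TMM-normalised, and depth sets their precision: 1 count in the smallest library is about 1 in 44108035. No 2 libraries were identical.

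Groups and replicate numbers come from the sample titles. Over 10206 genes, deviations of KO libraries with the same number correlated across fractions (0.47, 0.53 and 0.64), so these numbers pair KO libraries. For the WT numbers found in both fractions the values were 0.13 and -0.51, so these pair nothing.

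The genes named are the 10 genes, Runx1, Itga2b, up to 4 genes per list and comparison with the smallest adjusted p, and the 2 genes most correlated with each of the 10 (r of log2 CPM, mean of at least 5 CPM, without predicted genes, pseudogenes, mitochondrial or sex-linked marker genes), of which 1 gene is not reported here. Kit, Lyve1, Etv2, Sox17, Nr4a1, Xist, Ddx3y and Angpt1 are named outside this rule, after their values were seen. The 10 genes and the lists (vascular ligands and co-receptors, junction and adhesion partners, blood endothelial, sinusoidal and lymphatic, endothelial and blood transcription factors, stem cell, stromal, macrophage, megakaryocyte, plasma and B cell markers) were chosen with earlier results of these data known.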

Additional observations from a re-analysis of the deposited data

Results flagged for a closer look

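The KO libraries of Kdr lay on opposite sides of the WT libraries in the CD41pos and CD41neg fractions. In CD41pos, the 3 KO libraries had 14.7 to 28.5 CPM, against 2.77 to 12.8 CPM in WT libraries, so that every KO library lay above every WT library, and the log2 fold change of 1.23 did not pass (edgeR adjusted p = 0.0976). In CD41neg, the 3 KO libraries had 2.84 to 6.47 CPM, against 14.8 to 29.1 CPM in WT libraries, so that every KO library lay below, and the log2 fold change of -2.11 passed (edgeR adjusted p = 0.0297) but lost its call in 10 of 24 alternatives. The difference of the log2 fold changes, CD41pos minus CD41neg, was 3.34 ± 0.71, and edgeR's test of it over all genes did not pass (adjusted p = 0.515), while DESeq2's did (adjusted p = 0.00182). Leaving out each library in turn kept the difference between 2.93 and 3.73, but it did not pass in any of these 12 fits. The lowest CD41pos WT value came from CD41pos WT 3, while CD41pos WT 1 and 4 had 10.5 and 12.8 CPM.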

How the results depend on the processing

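Over the alternatives, the 10 genes kept direction and side of the threshold in 1093 cases, lost a call in 46, gained one in 34 and changed sign in 37. Genes called in CD41neg KO against WT (1517) numbered 3096 with DESeq2, 458 with replicate number as a block, 999 with log2(TPM + 1) unfiltered, and 367 to 3852 without 1 library. In CD41pos (3309) they numbered 5066 with DESeq2, 2154 with only these groups, 957 with the block, 2090 with log2(TPM + 0.1), 1018 with TPM unfiltered, 7639 without the 4 WT libraries, and 1010 to 4270 without 1 library. Between KO fractions (541) they numbered 1321 with DESeq2, 1505 with only these groups, 156 with the block, 1474 without the 4 WT libraries, and 199 to 1094 without 1 library. Between WT fractions (1084) they numbered 2428 with DESeq2, 201 with only these groups, 42 with the block by label number (1046 by neighbouring library numbers), 667 with TPM unfiltered, 4811 without the 4 WT libraries, and 460 to 1200 without 1 library. For the difference of KO effects (0) they numbered 73 with DESeq2, 2 with no count filter, 1 with the block, 7, 26 and 67 with log2(TPM + 1), log2(TPM + 0.1) and TPM unfiltered, 3467 without the 4 WT libraries, and 0 to 2 without 1 library.

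The data showed a pairing by block number in KO libraries only. For KO against WT, KO and WT libraries of the same number shared a term, though they came from different mice. For that comparison the block stands for no pairing, and its counts above and lost calls below carry that limit. Between WT fractions and for the difference of KO effects, the block by label number joined only WT 3 and WT 4 across the fractions. Their deviations correlated at 0.13 and -0.51, so that block pairs nothing in WT either. By neighbouring library numbers the WT correlations were -0.04, 0.13 and 0.61. With the block, Kdr and Tek lost their KO-against-WT calls (CD41neg Kdr -2.00, adjusted p = 0.067, and CD41pos Tek 1.56, 0.0656), as did Stab2 and Ushbp1 between WT fractions (-2.81, 0.1, and -4.02, 0.102). With WT libraries blocked by neighbouring library numbers instead, Stab2 and Ushbp1 passed (-3.08, adjusted p = 0.00971, and -3.76, 0.00859), as did Cdh5 (-2.64, 0.0229). CD41neg Kdr also lost its call on TPM (-1.44 and -1.87, adjusted p = 0.0853 and 0.112, and 0.151 unfiltered), CD41pos Tek on log2(TPM + 0.1) and unfiltered TPM (0.0517 and 0.0855), and CD41neg Ushbp1 without the 4 WT libraries (0.0808). DESeq2 added calls for Tek in CD41neg (adjusted p = 0.0384) and for Kdr and Cdh5 in CD41pos (0.0389 and 0.0422), and between WT fractions for Cdh5 (0.0163). On log2(TPM + 1) the CD41neg changes were smaller for Cdh5 (-1.21) and Ushbp1 (-2.17).

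Sign changes touched values that had not passed. In CD41pos KO against WT, Eng turned to 0.012 with the block, 0.14 on TPM (pseudocounts 1 and 0.1), 0.074 with the term for the 4 WT libraries and 0.27 without them (-0.18 to 0.059 without 1 library). Tie1 turned to 0.051, 0.039 and 0.04, 0.037 and 0.35 in the same settings. Flt4 turned to 0.023 with the term and 0.49 without the 4 libraries (-0.63 to 0.007 without 1 library). Stab2 turned to 0.025 with DESeq2, 0.026 with its size factors, 0.05 unfiltered, 0.009 with only these groups, 0.13 and 0.20 on TPM (pseudocounts 1 and 0.1), and -0.38 to 0.63 without 1 library. Without the 4 WT libraries Pecam1, Tek and Angpt1 turned to -0.49, -0.92 and -0.32 between WT fractions and Pecam1 to 0.53 for the difference of KO effects; Tek then passed (adjusted p = 0.00928). Without 1 library, ranges that crossed 0 were -0.70 to 0.11 for Tie1 in CD41neg KO against WT, -0.67 to 0.008 for Stab2, -1.31 to 0.59 for Ushbp1 and -0.18 to 0.14 for Pecam1 between KO fractions, and -0.29 to 0.52 for Tie1 and -0.15 to 0.44 for Esam for the difference of KO effects. The cause of these changes was not tested. Depth limits Cdh5 most, with 6 to 70 counts in each library outside CD41neg WT.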
